A study of Mus musculus with 3 samples.

Results

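Hemoglobin genes, enzymes of heme synthesis and genes of iron export were followed in spleen RNA set against a reference RNA. The 8 genes were the alpha globin Hba-a1, the adult beta globin Hbb-bs, the embryonic beta-like globin Hbb-y, the red cell enzyme Bpgm, the heme synthesis enzymes Urod and Fech, the iron exporter Slc40a1 and the ferroxidase Cp. They were found by gene symbol in the platform's probe annotation, 8 of the 7984 genes named there, and they hold 46 probes. Of these probes 31 gave a value on all 3 arrays, 5 on 1 array only and 10 on none.

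Each of the 3 two-colour arrays compared cRNA from purchased mouse spleen total RNA, labelled red with Cy5, with cRNA from purchased Universal Mouse Reference RNA (UMRR), a commercial pool of RNA from mouse cell lines, labelled green with Cy3. Both cRNAs were made with 1 round of amplification. On all 3 arrays the spleen RNA was the same catalogue item, as was the reference, and strain, age, sex and number of animals were not stated. The spread behind each p-value is therefore that between arrays alone and may be technical. Spleen carried the red dye throughout, so dye and RNA source cannot be told apart.

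The values are the authors' log ratios. Their base and numerator are not stated, so folds are given both for base 2 and for natural logs. A positive value is called likely higher in spleen. That direction rests on the common practice of dividing red by green, and on marker lists that hold none of the 8 genes: 4 of 4 B cell, 5 of 6 T cell and 2 of 2 neutrophil granule genes passed the test with a positive ratio, and 4 of 4 fibroblast and matrix genes with a negative one. The sample titles name the reference first, which could mean the opposite order. Among other cell types, 11 of 12 measured exocrine pancreas genes were also positive, with a median of 4.16. An exact 0, found at 24.2% to 26.8% of probes on an array, was read as no measurement. Pearson's r between arrays, across probes, was 0.952 to 0.969, and the number of arrays limits the precision.

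Red cells carry hemoglobin, a tetramer of alpha and beta globin chains, each holding a heme. Heme is built in a short pathway that starts and ends in the mitochondrion, in which Urod makes coproporphyrinogen and Fech puts iron into the finished ring. In the spleen, red pulp macrophages take up old red cells, break down their heme and return the iron to plasma through ferroportin, the product of Slc40a1. Copper oxidases such as ceruloplasmin, the product of Cp, oxidize that iron for loading on transferrin. In mice the spleen can also make red cells.

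Of the 8 genes, 7 had positive ratios that passed the test against 0 (limma, Benjamini-Hochberg adjusted p under 0.05), and Cp had a negative one. In the same test 33.2% of all 6077 genes were positive and 37.1% negative, 70.3% in all. The adjusted p of the 8 genes lay between 7.92e-08 for Slc40a1 and 6.84e-06 for Cp. Against a 1.5-fold change in base 2 the 7 genes remained called, as were 10.3% of all genes with a positive ratio. In bulk RNA, fewer cells of a type and less RNA per cell cannot be told apart.

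**Figure D1:**
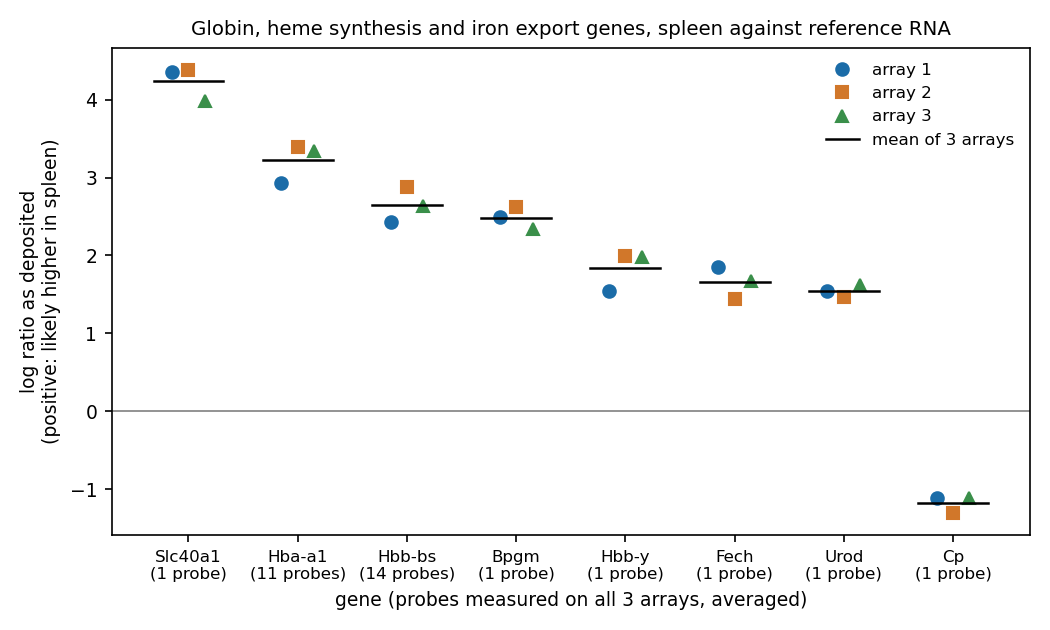
Log ratio of each of the 8 genes on each of the 3 arrays (symbols), as deposited, with the mean of the arrays (line); genes are in order of their mean and the number of probes averaged is given under each name. The 7 positive genes lie between 1.55 for Urod and 4.24 for Slc40a1, and the 3 values of Cp lie between -1.31 and -1.12.

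Adult globins came first in the number of probes. Hba-a1 encodes the alpha chain of adult hemoglobin. Its gene mean over 11 probes was 2.93 on array 1, 3.39 on array 2 and 3.34 on array 3. Array 1 was the lowest, and all 3 values were far from 0. The mean was 3.22 ± 0.25 (SD, n = 3; limma adjusted p = 3.36e-07), which would be 9.32-fold in base 2 and 25.0-fold in natural logs, and 0.839% of genes had a higher mean.

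Single probes of Hba-a1 gave like answers. All 11 passed the probe test with a positive ratio, as did 32.3% of the 11086 probes tested, while 36% of those passed with a negative one. Their means ran from 2.81 for probe 11948 to 3.42 for probe 13536, with a median of 3.32. The other probe below 3 was probe 6751 at 2.89, and the remaining 9 lay between 3.11 and 3.42. The SD between probe means was 0.21. A typical probe varied by 0.25 over the arrays (median SD), which includes a shift that the probes share, as all 11 were lowest on array 1.

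Hba-a1 has 7 further probes. Probe 2805 gave 3.64 on array 3 alone, probe 16598 gave 3.48 on array 2 alone and probe 11947 gave 2.37 on array 1 alone. On their other arrays these probes held exactly 0, as did the remaining 4 probes on all arrays. The 3 lone values are all clearly positive, and probe 11947 lies below the lowest array 1 value of the 11 full probes, 2.54. Counting every 0 as a measurement lowered the gene mean to 2.14 (limma adjusted p = 0.00644). That adjusted p does not follow from the lower mean alone. In the same setting it rose from 1.41e-06 to 0.00371 for Urod, which holds no 0.

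Hbb-bs encodes a beta chain of adult hemoglobin. Its gene mean over 14 probes was 2.43 on array 1, 2.87 on array 2 and 2.63 on array 3. Array 1 was again the lowest and array 2 the highest. The mean was 2.64 ± 0.22 (SD, n = 3; limma adjusted p = 6.01e-07), or 6.25-fold in base 2 and 14.1-fold in natural logs.

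The probes of Hbb-bs were less alike than those of Hba-a1. All 14 passed the probe test and were positive, with means from 1.35 to 3.03 and a median of 2.82. Probe 8793 gave 1.24, 1.31 and 1.51 on arrays 1 to 3, and probe 2524 gave 1.65, 2.25 and 1.39. These 2 probes stood below the other 12, whose means lay between 2.57 and 3.03, and they raised the SD between probe means to 0.48. Of the 5 probes without a value on every array, probe 2144 gave 3.25 on array 2 alone, probe 1057 gave 3.08 on array 3 alone and 3 held 0 throughout.

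The alpha gene had the higher ratio on each array. Hba-a1 exceeded Hbb-bs by 0.50 on array 1, 0.52 on array 2 and 0.71 on array 3, a mean difference of 0.58 ± 0.12 (SD, n = 3; exact sign-flip permutation test, two-sided, p = 0.25, the smallest that 3 arrays allow). With the median of each gene's probes in place of the mean, which gives the 2 low Hbb-bs probes less weight, the difference was 0.49. With every 0 counted as a measurement it was 0.08, because more of the Hba-a1 probes hold 0.

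The nearest relatives gave values close to these. Hba-a2, the second adult alpha gene, had 2.90, 3.27 and 3.14 on arrays 1 to 3 over 5 probes, a mean of 3.10 ± 0.19 (SD, n = 3). Hba-a1 was higher by 0.12 ± 0.085 (SD, n = 3; exact p = 0.25). Hbb-bt, the second adult beta gene, had 2.55, 2.94 and 2.78 over 4 probes, a mean of 2.76 ± 0.19 (SD, n = 3). Here Hbb-bs was the lower on all 3 arrays, with a difference of -0.12 ± 0.044 (SD, n = 3; exact p = 0.25). Both relatives passed the limma test, with adjusted p of 2.10e-07 and 3.42e-07. A probe annotated to Hbb-bt, Hbb-bs, Hbb-b2 and Hbb-b1 together gave 2.14, 2.48 and 2.47. Paralogs of each chain share sequence, so the probes of a pair may bind each other's RNA and the split within a pair is uncertain. With every 0 kept, Hba-a2 had 1.96 and Hbb-bt 1.81.

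Embryonic globins had smaller ratios than the adult chains. Hbb-y, made in the red cells of the embryonic yolk sac, was measured by 1 of its 3 probes, with 1.54, 1.99 and 1.98 on arrays 1 to 3. Array 1 stood apart below the other 2. The mean was 1.84 ± 0.26 (SD, n = 3; limma adjusted p = 4.55e-06), or 3.58-fold in base 2 and 6.29-fold in natural logs. It was 0.61 with the 2 empty probes counted as 0. Hbb-bs exceeded Hbb-y by 0.80 ± 0.14 (SD, n = 3; exact p = 0.25), on all 3 arrays.

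Hbb-bh1, another embryonic beta-like gene, had 1.40, 1.61 and 1.63 over 2 probes, a mean of 1.54 ± 0.12 (SD, n = 3; limma adjusted p = 2.15e-06). With every 0 kept it had 0.54. Of its other probes, probe 8927 gave 0.72 on array 1 alone and probe 4241 gave -0.24 on array 3 alone. That -0.24 was the lowest value of any globin probe and the only negative one. Embryonic and adult beta-like genes are related in sequence, so binding of adult globin RNA to these probes was not tested.

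The promoters of the 2 alpha genes are shown by the RefSeq sequence to be nearly the same, and those of the beta-like genes less so. Of the 8 genes, 6 had an entry in the RefSeq promoter table (GRCm38.p6). Slc40a1 and Fech had none. The 120 bases before the transcript start are printed 5′ to 3′ for the globins of each kind and for Bpgm and Urod, which are not globins. Capitals mark matches, on either strand, to the short motifs CCAAT (the CCAAT box), CACCC (bound by KLF factors), TATAA (the TATA box) and GATAA (bound by GATA factors). None of the matches overlaps another in the printed sequences.
Hba-a1, chr11:32283552-32283671, plus strand: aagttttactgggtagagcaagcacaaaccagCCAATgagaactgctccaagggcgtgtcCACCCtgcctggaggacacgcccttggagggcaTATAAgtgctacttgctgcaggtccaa
Hbb-bs, chr7:103827929-103828048, minus strand: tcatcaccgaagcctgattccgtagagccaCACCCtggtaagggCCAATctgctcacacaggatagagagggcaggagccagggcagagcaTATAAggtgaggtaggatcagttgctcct
Hbb-y, chr7:103853208-103853327, minus strand: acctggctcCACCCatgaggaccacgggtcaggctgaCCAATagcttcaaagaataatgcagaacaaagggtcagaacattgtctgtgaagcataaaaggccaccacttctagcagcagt
Bpgm, chr6:34476236-34476355, plus strand: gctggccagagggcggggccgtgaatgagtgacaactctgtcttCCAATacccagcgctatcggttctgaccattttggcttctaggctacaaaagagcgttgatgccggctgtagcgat
Urod, chr4:116994414-116994533, minus strand: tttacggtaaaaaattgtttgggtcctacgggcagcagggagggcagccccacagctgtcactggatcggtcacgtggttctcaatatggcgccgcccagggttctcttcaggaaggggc

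Hba-a1 and Hbb-bs hold the CCAAT box, the CACCC motif and the TATA box once each, with TATAA starting 27 and 29 bases before the start. Hbb-y holds CCAAT and CACCC and has no TATAA in this window, Bpgm holds CCAAT alone and Urod none of the 4. No GATAA lay in any of these windows. Among 32851 windows of 120 bases in the table, 21.3% held CCAAT, 31.7% CACCC, 11.8% TATAA, 10.5% GATAA and 0.688% all of the first 3. Hba-a1 and Hba-a2 shared an unbroken run of 297 bases in windows of 300 bases, from 250 before to 50 after the start, whereas Hbb-bs and Hbb-bt shared at most 14 in a row and Hbb-bs and Hbb-y at most 12. Set without gaps at the best shift, Hbb-bs matched Hbb-bt at 88 of 120 bases and Hbb-y at 38. Hbb-bs matched the alpha gene Hba-a1 at 45, so the 38 is no sign of a special likeness of Hbb-bs and Hbb-y. Nor does it show that likeness is absent, because a single shift without gaps cannot align both motifs. CACCC and CCAAT begin 90 and 76 bases before the start in Hbb-bs, and 111 and 83 in Hbb-y. A match is a description of the sequence only.

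**Figure D2:**
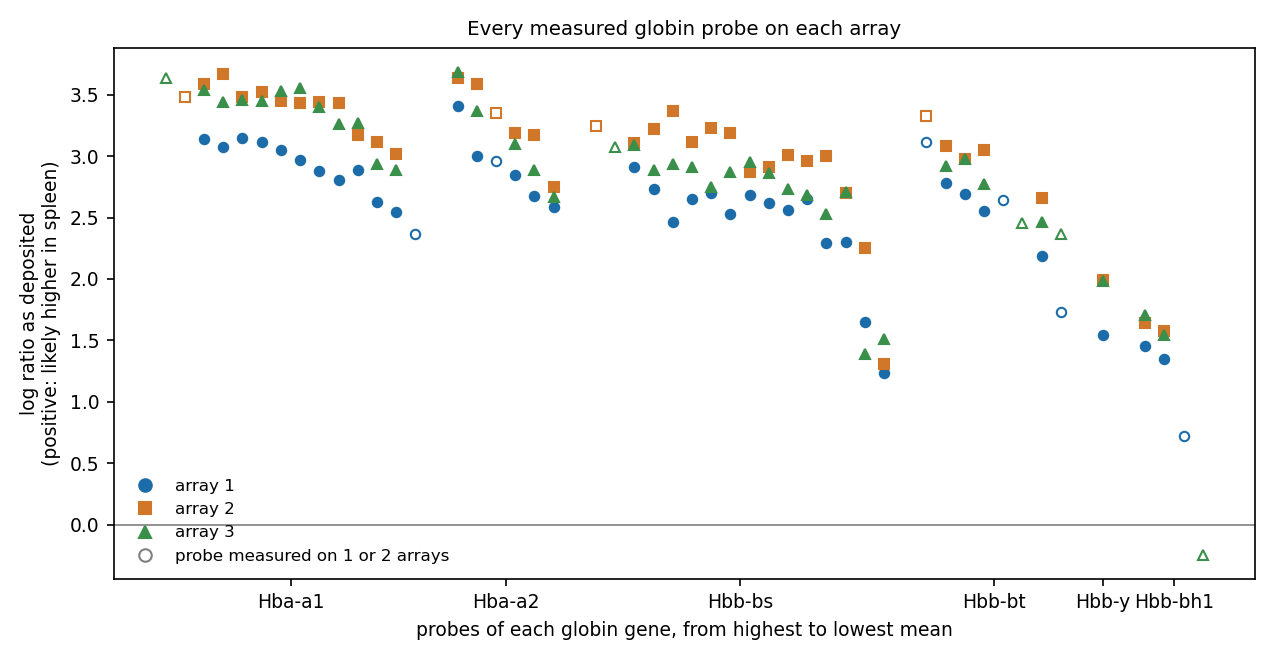
Log ratio of every globin probe with at least 1 value, by gene and from the highest to the lowest mean; symbols stand for the 3 arrays, and open symbols for probes measured on 1 or 2 arrays. Alpha probes lie above most beta probes, 2 probes of Hbb-bs lie apart at 1.35 and 1.77, and the array 1 symbols lie lowest in nearly every full probe.

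The globin probes moved together between arrays. Of the 38 globin probes measured on all arrays, 37 had their lowest value on array 1, against 34.1% of all 11086 probes. The exception was probe 2524 of Hbb-bs, of the low pair. All 11 probes of Hba-a1 and 13 of the 14 of Hbb-bs had it there. Other probes with a mean ratio of 2 or more did so in 60 of 279 cases (21.5%), and those with a mean from 2.5 to 3.5 in 23 of 85 (27.1%). The median deviation of the globin probes from their own mean was -0.23 on array 1, 0.16 on array 2 and 0.05 on array 3, while for all probes the 3 medians were -0.00085, 0.0027 and 0.010. This pattern was noticed in the values, so it has no test, and globin probes share target RNAs and so are not independent.

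With a running median along the probe numbers removed, a setting added after the data were seen, the count was 33 to 37 of 38. Among the members that are not globins, Bpgm and Slc40a1 were lowest on array 3, and Fech, Urod and Cp on array 2. Of the 37 other red cell, heme and iron genes listed, these 5 included, 13 were lowest on array 1, among them Tmem14c, Hfe, Slc14a1 and Lmo2. The cause was not tested.

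**Figure D3:**
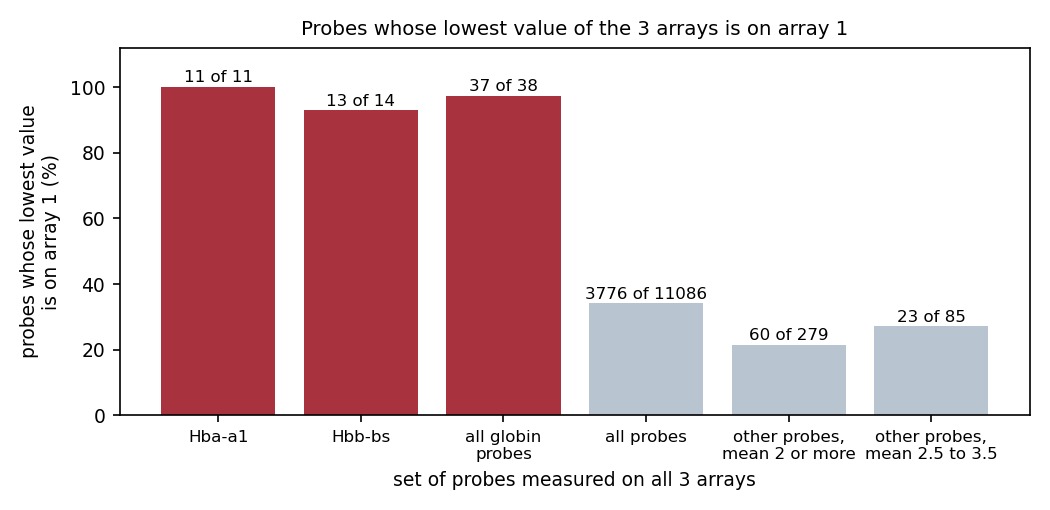
Share of probes, among those measured on all 3 arrays, whose lowest value was on array 1; the count is written over each bar. It was 37 of 38 for globin probes, 3776 of 11086 for all probes and 60 of 279 for other probes with a mean of 2 or more.

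Bpgm makes 2,3-bisphosphoglycerate, which lowers the oxygen affinity of hemoglobin in red cells. Its 1 probe gave 2.49, 2.62 and 2.34 on arrays 1 to 3, with little spread. The mean was 2.48 ± 0.14 (SD, n = 3; limma adjusted p = 3.06e-07), or 5.59-fold in base 2 and 12.0-fold in natural logs. It lay 0.16 ± 0.20 (SD, n = 3; exact p = 0.5) below Hbb-bs, so these 2 neighbours in the order did not differ beyond their spread.

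Other red cell enzymes and carriers went both ways. Of 8 measured on all arrays, Bpgm included, 6 were positive and 2 negative, with a median of 1.07 against -0.03 for all genes. Over all genes tested 33.2% were positive and 37.1% negative, shares that also stand beside the list counts below. The antioxidant enzyme Gpx1 had 1.75 ± 0.31 (SD, n = 3), the urea transporter Slc14a1 1.66 and the pyrimidine nucleotidase Nt5c3 1.65. The peroxiredoxin Prdx2 had 0.48 (0.29 by the median of its probes, 0.99 by the largest) and the phospholipid hydroperoxidase Gpx4 0.22. Pgam1, a phosphoglycerate mutase of glycolysis related to Bpgm, was negative at -1.72 ± 0.12 (SD, n = 3), and the ubiquitin hydrolase Uchl1 had -0.20. With 0 kept, the calls of Gpx1 (adjusted p = 0.062), Nt5c3 (0.0947) and Prdx2 (0.0744) ended. The call of Uchl1 ended in 13 of 19 other settings, among them leaving out any 1 array (adjusted p = 0.0677, 0.172 and 0.076 without arrays 1, 2 and 3). That of Gpx4 ended in 6, among them leaving out array 1 (0.0654) or array 3 (0.0942). Here and below, the limma fit without array 3 pooled the variances of all genes, so its adjusted p follows the mean alone. Carbonic anhydrase Car1 gave 3.66 on array 2 alone, and both probes of Car2 held 0.

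Urod, uroporphyrinogen decarboxylase, works in the cytosol in the middle of heme synthesis. Its 1 probe gave 1.55, 1.46 and 1.63 on arrays 1 to 3, the tightest triple of the 8 genes. The mean was 1.55 ± 0.081 (SD, n = 3; limma adjusted p = 1.41e-06), or 2.92-fold in base 2 and 4.69-fold in natural logs.

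Fech, ferrochelatase, completes heme in the mitochondrion. Its 1 probe gave 1.85, 1.44 and 1.67, with array 2 lowest. The mean was 1.66 ± 0.21 (SD, n = 3; limma adjusted p = 4.06e-06), or 3.15-fold in base 2 and 5.24-fold in natural logs. Fech exceeded Urod by 0.11 ± 0.17 (SD, n = 3; exact p = 0.5), and Hbb-y exceeded Fech by 0.18 ± 0.44 (SD, n = 3; exact p = 0.5). Neither difference was larger than its SD. Hbb-y and Urod were not compared directly.

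Of the heme synthesis list, 6 of 15 genes were on the array and 4 had values on all 3 arrays. All 4 were positive, as were 33.2% of all genes, with a median of 1.49. Besides Urod and Fech these were Tmem14c, a mitochondrial carrier of porphyrin precursors, at 1.43 ± 0.085 (SD, n = 3), and the mitochondrial iron importer mitoferrin, Slc25a37, at 0.47 ± 0.27 (SD, n = 3). Tmem14c fell to 0.87 with a running median over 5 probe numbers removed. The call of Slc25a37 ended without moderation of the variance (adjusted p = 0.139), against a 1.5-fold change and with 0 kept. In that last setting its mean stayed at 0.47, because its 1 probe holds no 0. The limma adjusted p rose there also for other genes without any 0. Alas2, the first and rate-limiting enzyme in red cell precursors, gave -0.63 on array 1 and 0 on the others, a value opposite in sign to those of Urod and Fech. Abcb10 gave 0.04 and -0.24 on arrays 1 and 2.

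Slc40a1 had the highest ratio of the 8 genes. It encodes ferroportin, the only known exporter of iron from mammalian cells. Its 1 probe gave 4.35, 4.38 and 3.98 on arrays 1 to 3, with array 3 lowest. The mean was 4.24 ± 0.22 (SD, n = 3; limma adjusted p = 7.92e-08), or 18.9-fold in base 2 and 69.3-fold in natural logs, and 21 of the 6077 genes had a higher mean. It exceeded Hba-a1 by 1.02 ± 0.39 (SD, n = 3; exact p = 0.25), on all 3 arrays.

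Cp encodes ceruloplasmin, a plasma ferroxidase made mainly by the liver. It was the 1 negative gene of the 8. Its measured probe gave -1.12, -1.31 and -1.12, and its second probe held 0 on all arrays. The mean was -1.18 ± 0.11 (SD, n = 3; limma adjusted p = 6.84e-06), or 2.27-fold in base 2 and 3.26-fold in natural logs towards the likely reference side. It was -0.68 with a running median over 5 probe numbers removed and -0.59 with 0 kept. Slc40a1 and Cp, which act in the same step of iron release, were thus on opposite sides of 0 on all 3 arrays.

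Markers of cell types that use these genes were set beside them. Of 8 macrophage markers on the array 3 had values on all arrays and all 3 were positive: Aif1 at 3.58, Ctss at 1.35 and Fcer1g at 1.18, with a summed ratio of 6.01 to 6.26 per array. Csf1r and Vcam1 held 0 throughout. On array 3 alone, Cd68 gave -0.07, C1qa 1.32 and Mertk 2.71. All 4 hepatocyte markers measured on all arrays were positive, from 0.37 for Ambp to 1.90 for Ttr. Their summed ratio was 5.06 to 5.33 per array, opposite to the sign of Cp. Fgb, also on that list, gave 3.08 and 2.79 on arrays 1 and 2 and 0 on array 3. The part of macrophages or of hepatocyte RNA in these ratios was not tested.

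The wider iron list was mixed. Of 10 genes measured on all arrays, Slc40a1 and Cp included, 5 were positive and 3 negative, while 2 missed the threshold. Their median was 0.18. Hfe, a regulator of hepcidin, had 2.26 ± 0.13 (SD, n = 3), the iron-sulfur scaffold Iscu 1.07 and Hamp2, a paralog of the hepcidin gene, 0.88. The ferritin light chain Ftl1 had 0.28 ± 0.20 (SD, n = 3) over 3 probes. Its limma call ended without array 2 (adjusted p = 0.0914) and, with the pooled variance, without array 3 (0.0968). Steap1, a membrane protein of the metalloreductase family, was lowest at -4.29 ± 0.28 (SD, n = 3), and hemojuvelin, Hjv, had -0.67 ± 0.24 (SD, n = 3). The 3 probes of Hjv disagreed in size, with -0.39 for their median and -1.80 for the largest, and its call ended without moderation of the variance (adjusted p = 0.0742). Iscu had 0.31 with a running median over 5 probe numbers removed. The transferrin receptor Tfrc and Ncoa4 held 0 throughout.

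Genes of heme uptake, transport and breakdown had mostly small ratios. Of 5 measured, 2 were positive and 2 negative, and 1 missed the threshold. Their median was -0.18. The heme-binding protein Hebp1 stood apart at 2.33 ± 0.30 (SD, n = 3; limma adjusted p = 2.44e-06), with 2.31, 2.65 and 2.04 on arrays 1 to 3. The heme transporter Slc48a1 had 0.24, biliverdin reductase Blvra -0.24, the scavenger receptor Lrp1 -0.36 and the heme-binding membrane protein Pgrmc1 -0.18, which did not pass. Another probe of Slc48a1, probe 12953, gave -0.20 on array 1 alone. Calls of the small ones were not stable. That of Lrp1 ended without array 1 (limma adjusted p = 0.0594) and that of Slc48a1 without array 2 (0.0916). Blvra lost its call in 10 of 19 other settings, among them every running median removed, with means from -0.20 to -0.025. Its call also ended without array 1 (0.111) or array 3 (0.237), and Pgrmc1 passed without array 3 (0.0451). Both values without array 3 rest on the pooled variance of that fit.

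Red cell membrane genes and erythroid regulators lay on the side of the globins. Of 3 membrane genes 2 were positive and 1 did not pass. The anion exchanger band 3, Slc4a1, had 1.72 ± 0.19 (SD, n = 3; 0.86 with 0 kept) and the complement inhibitor Cd59a 0.73. Xk had 0.39 ± 0.47 (SD, n = 3) and did not pass. It passed without array 2 (0.66, limma adjusted p = 0.000294). Without array 3 it had 0.28, and its pass there (limma adjusted p = 0.0271) rests on the pooled variance of that fit. Of 13 regulators on the array, 7 were measured on all arrays. All 7 were positive, as were 33.2% of all genes, with a median of 0.78. Lmo2, a partner of the red cell transcription factors, had 2.58 ± 0.097 (SD, n = 3), Lyl1 1.07, the erythropoietin receptor Epor 0.95, the mitophagy receptor Bnip3l 0.78, Klf3 0.57 (0.89 with a running median over 5 probe numbers removed), Zbtb7a 0.52 and the heme-regulated kinase Eif2ak1 0.51. The 2 probes of Epor disagreed in size, at 0.35 and 1.56. Eif2ak1 had 0.34 and 0.24 with a running median over 5 or 10 probe numbers removed, and its call ended without moderation of the variance (adjusted p = 0.0656), as did that of Zbtb7a (0.053). Against a 1.5-fold change the calls of Bnip3l, Klf3, Zbtb7a and Eif2ak1 ended. Cd59a had 0.26 by its probe with the smallest SD. Lmo2 and Lyl1 are also used by other blood cells. Zfpm1, a partner of GATA1, gave -0.92 and -0.91 on arrays 1 and 3 and 0 on array 2.

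**Figure D4:**
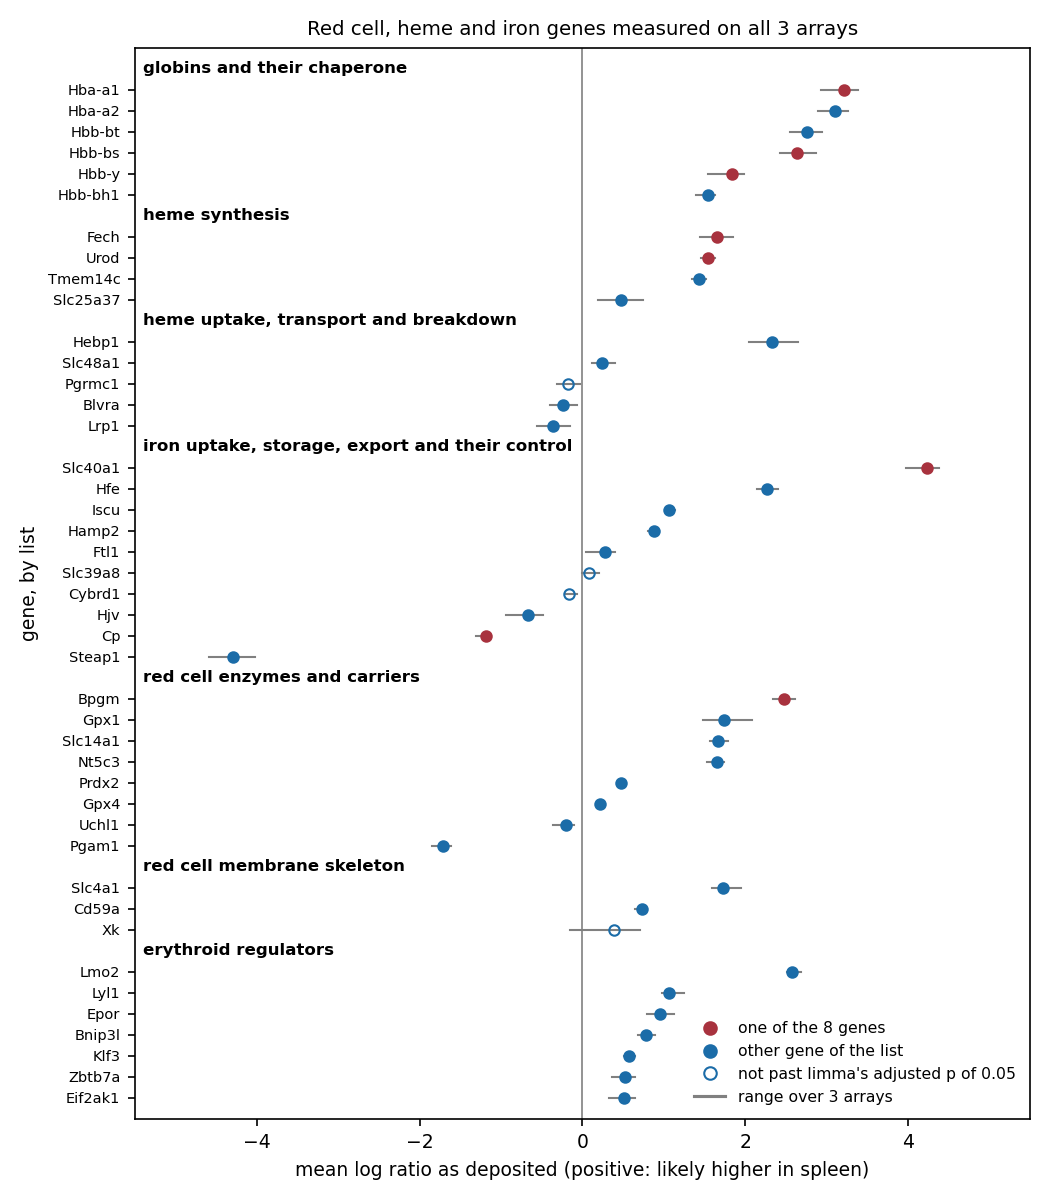
Mean log ratio of the red cell, heme and iron genes measured on all 3 arrays, by list, with the range over the arrays (line); red points are the 8 genes and open points did not pass limma's adjusted p of 0.05. All 6 globin and all 4 heme synthesis genes lie above 0, whereas the iron list spans from -4.29 to 4.24.

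Over these 7 lists together, 43 genes were measured on all arrays, the 8 genes included, of which 32 were positive, 7 negative and 4 did not pass. The members of the lists were chosen with earlier results known, so these counts stand beside the 33.2% and 37.1% of all genes as a description.

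In order, the 8 genes ran Slc40a1, Hba-a1, Hbb-bs, Bpgm, Hbb-y, Fech, Urod and Cp. Of the 7 differences between neighbours, 4 had the same sign on all 3 arrays: Slc40a1 over Hba-a1, Hba-a1 over Hbb-bs, Bpgm over Hbb-y (0.64 ± 0.30, SD, n = 3; exact p = 0.25) and Urod over Cp (2.73 ± 0.057, SD, n = 3; exact p = 0.25). With 3 arrays no such difference can reach an exact p under 0.25, also before adjustment over the 7. A difference in ratio says nothing of which RNA was more abundant in spleen, since each ratio is relative to the reference level of its own gene.

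**Figure D5:**
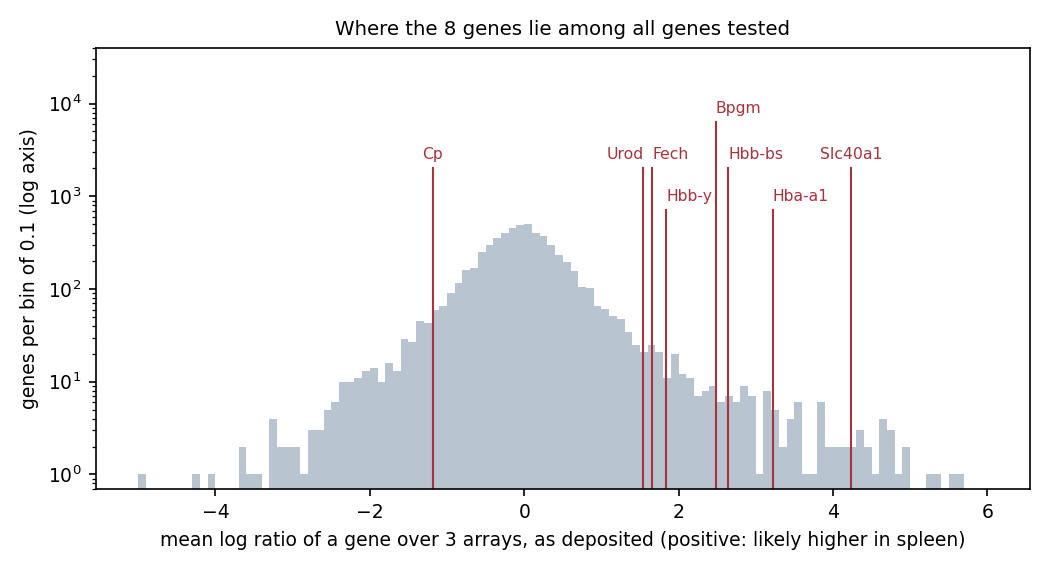
Number of genes by mean log ratio over the 3 arrays, in bins of 0.1 on a log axis, for the 6077 genes tested; red lines mark the 8 genes. From the highest mean down, Slc40a1 is at rank 22, Hba-a1 at 52, Hbb-bs at 88, Bpgm at 99, Hbb-y at 170, Fech at 210, Urod at 231 and Cp at 5792.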

How the data were processed

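The authors deposited 1 table of log ratios, read here as log2 or natural log because the base is not stated, for 16273 probes on 3 two-colour arrays. How background, normalization, centring and direction were handled is not given in the sources used here. Read as logs, the largest value, 5.78, would be 54.8-fold in base 2 and 322-fold in natural logs. Array medians were -0.028, -0.029 and -0.027.

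Gene names came from the platform annotation: 12336 probes had 1 symbol, 61 several and 3876 none here. Probes with a value on all 3 arrays (11086) were tested singly, and those with 1 symbol were averaged into 6077 genes. An intercept model in limma 3.58.1 (R 4.3.3), tested on simulated data, compared each ratio with 0, two-sided, with Benjamini-Hochberg adjustment over the whole table. Because both RNAs bear the same product on each array, the arrays may repeat the same extracts and would then count as 1 replicate. Differences between genes used an exact sign-flip test.

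The 8 genes, the other lists and the tests were chosen with earlier results of these data known. Named were the 8 genes and, of each other red cell, heme or iron list, up to 8 measured genes with the largest absolute mean. Genes without a value on all 3 arrays, probes singled out and markers were named after their values were seen. Promoters came from RefSeq (GRCm38.p6), matched by symbol. Figures used matplotlib 3.10.9. Other normalizations, variance models, thresholds, treatments of 0, probe summaries and sets of arrays were tried, with their effect given at the end.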

Additional observations from a re-analysis of the deposited data

How the results depend on the processing

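The 8 genes kept their sign and their call in all 19 other settings tried, and 7 were positive in each. These settings were centring, scaling or quantile normalization of the arrays, robust or no moderation, the stricter adjusted p of 0.01, testing for more than a 1.5-fold change, probes measured on at least 2 arrays, 0 kept as a value, a running median along 5, 10, 20 or 40 probe numbers removed, leaving out each array, and 3 other ways to combine probes. Some of these settings could not change the outcome. For genes with 1 measured probe the other ways to combine probes give the same value. The threshold of 0.01 was already met, as the largest limma adjusted p of the 8 genes was 6.84e-06. The counts over all genes and probes moved more. Against 4270 genes and 7576 probes called in the analysis reported, there were 2770 genes (1395 negative) and 4609 probes (2365 positive, 2244 negative) without moderation of the variance. Against a 1.5-fold change there were 1208 genes (626 positive, 582 negative) and 2104 probes (1137 positive, 967 negative). There the calls of Slc25a37, Prdx2, Gpx4, Uchl1, Cd59a, Hjv, Ftl1, Slc48a1, Blvra, Lrp1, Bnip3l, Klf3, Zbtb7a and Eif2ak1 ended. Leaving out each array gave 3660 to 4151 genes, and 0.51 to 0.61 for the excess of Hba-a1 over Hbb-bs, which was 0.08 with 0 kept. With 0 kept, genes and probes at 0 on every array also entered limma's variance model. The limma adjusted p then rose for genes without any 0 too, for Bpgm from 3.06e-07 to 0.00396 at an unchanged mean. A call that ended in that setting is thus no measure of a gene's own empty probes. Without array 3 limma pooled the variances of all genes, so its adjusted p followed the mean alone. For Hba-a1 that limma adjusted p was 8.96e-150, against 3.69e-06 without array 1, and such values are no measure of the evidence. No paired comparison of samples was possible because the arrays form 1 group. Differences between genes were taken within each array. How far each probe lay above background is unknown.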
